A study of Mus musculus with 6 samples.

Results

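The transcripts described here are 9 genes that mark the glia of the brain and spinal cord, measured in a peripheral nerve. They are the oligodendrocyte genes Olig2, Mog, Mobp, Opalin, Ermn and Hapln2 and the astrocyte genes Aqp4, Slc1a2 and Gfap, taken by symbol out of 39174 genes in the tables. All 9 symbols were found, each as a single row. Whole sciatic nerves of 3 wild-type mice, numbered 2, 4 and 5, were compared with those of 3 Plekhg5-/- mice, numbered 2, 3 and 5. The latter are called Plekhg5-deficient here. The animals were 12 months old according to the text of the study and adult according to the sample records, and the sources used here give neither the design of the mutant allele nor the genetic background. Poly(A) RNA of each nerve was sequenced, and levels are FPKM, fragments scaled to transcript length and to the mapped fragments of the library, divided by a scaling factor for each library. Mobp and Slc1a2 are on the study's own list of downregulated transcripts, which was drawn up on these libraries, so their difference is not independent evidence.

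Oligodendrocytes form the myelin of the central nervous system, and Schwann cells form that of peripheral nerves. The 2 cell types share some myelin genes, such as Mbp and Mag, but Mog, Mobp and Opalin belong to central myelin and Olig2 to the oligodendrocyte lineage. Astrocytes take up glutamate through the transporter encoded by Slc1a2 and water through the channel encoded by Aqp4, and their intermediate filament protein Gfap is also made by non-myelinating Schwann cells. Central glia end at the transition zone of the spinal roots, above the sciatic nerve.

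Plekhg5 itself lay in the range of 3.65 to 5.26 FPKM in wild-type nerves and of 0.0521 to 0.141 FPKM in the mutant ones, so that the targeted gene did not go against any label. The Schwann cell myelin gene Pmp22 was at 4253 FPKM or more in every library, so a defining marker of peripheral nerve was present in all of them. Several libraries stood apart. The summed level of 10 sensory neuron genes lay between 397.6 and 1419 FPKM in wild-type animals 2 and 4 and Plekhg5-deficient nerves 2 and 3. In the libraries numbered 5 it was 8.18 FPKM (wild-type) and 9.92 FPKM (Plekhg5-deficient). The 10 T-cell and B-cell markers summed to 184 FPKM in wild-type nerve 5 and to at most 8.53 elsewhere. Of the FPKM of Plekhg5-deficient nerve 5, 16.0% belonged to haemoglobin genes, and at most 2.56% of those of any other library did. In whole nerve, fewer cells of a type and less RNA per cell cannot be told apart.

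The promoters of the 2 members with the smallest p-values, Mobp and Slc1a2, and of Mog are printed because their levels carry the comparison. Each runs from 250 bases before the start of transcription to 50 bases after it, from RefSeq on GRCm38.p6, which held a promoter for 8 of the 9 members. Capitals mark ACAAAG, a core sequence bound by Sox factors such as Sox10, and CAGCTG, an E-box of the kind bound by basic helix-loop-helix factors such as Olig2, on either strand and with no overlap between matches.
Mobp, chr9:120149492-120149791, plus strand: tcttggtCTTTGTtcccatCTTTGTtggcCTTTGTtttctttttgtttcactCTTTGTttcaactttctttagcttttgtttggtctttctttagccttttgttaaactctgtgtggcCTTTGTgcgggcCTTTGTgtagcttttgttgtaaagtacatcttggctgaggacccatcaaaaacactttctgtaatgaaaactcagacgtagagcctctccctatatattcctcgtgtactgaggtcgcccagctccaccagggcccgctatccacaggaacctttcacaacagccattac
Slc1a2, chr2:102706188-102706487, plus strand: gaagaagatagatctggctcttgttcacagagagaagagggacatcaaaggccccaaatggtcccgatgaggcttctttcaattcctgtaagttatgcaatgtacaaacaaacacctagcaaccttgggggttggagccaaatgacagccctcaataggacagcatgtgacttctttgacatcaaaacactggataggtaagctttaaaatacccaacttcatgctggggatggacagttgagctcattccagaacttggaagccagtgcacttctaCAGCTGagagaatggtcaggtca
Mog, chr17:37023349-37023648, minus strand: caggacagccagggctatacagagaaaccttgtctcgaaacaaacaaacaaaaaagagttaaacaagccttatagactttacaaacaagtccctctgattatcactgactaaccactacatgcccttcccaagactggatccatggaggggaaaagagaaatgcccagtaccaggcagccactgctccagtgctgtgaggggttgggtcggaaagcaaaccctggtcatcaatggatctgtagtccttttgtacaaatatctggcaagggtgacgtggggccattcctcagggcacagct
The Mobp promoter held 6 matches to ACAAAG, all of them read as CTTTGT on the strand printed and all upstream of the start. Of 32851 promoters of the same length, 18.7% held this sequence at least once, and the promoter of Mobp was the 1 promoter with 6 or more matches. The Slc1a2 promoter, which belongs to a start site inside the gene, held 1 match to CAGCTG, a sequence found in 16.3% of all promoters. The Opalin promoter held 2 matches to ACAAAG and 1 to CAGCTG, the Hapln2 promoter held 1 to CAGCTG, and the printed letters were not found in the windows of Mog, Olig2, Ermn and Gfap.

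Mobp, which encodes an abundant basic protein of central myelin, was the highest of the oligodendrocyte members. In GRCm38 it spans chromosome 9 from 120149742 to 120181484 (ENSMUSG00000032517). Its levels were 14.0, 3.30 and 1.47 FPKM in wild-type animals 2, 4 and 5, against 0.379, 0.632 and 0.829 FPKM among Plekhg5-deficient animals 2, 3 and 5. Every wild-type nerve was above every Plekhg5-deficient nerve, and wild-type nerve 2 was 4.24-fold above wild-type nerve 4. The 95% intervals that Cufflinks gave for single libraries were narrow for the highest value, 12.9 to 15.04 FPKM, and those of the nearest libraries overlapped, with 0.941 to 1.99 FPKM in wild-type nerve 5 and 0.464 to 1.19 FPKM in Plekhg5-deficient nerve 5. The mean was 10.2-fold higher in wild-type nerves (6.25 ± 6.76 FPKM, SD, n = 3) than in Plekhg5-deficient nerves (0.613 ± 0.225, SD, n = 3), and 3.88-fold higher without wild-type nerve 2. On the log2(FPKM + 1) scale, Plekhg5-deficient over wild-type, the difference of -1.76 (standard error 0.62, 95% interval -3.25 to -0.26) gave an adjusted p of 0.938 with limma, above the threshold of 0.05, and was -1.02 without wild-type nerve 2.

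Mog encodes a glycoprotein of the outermost layer of central myelin and lies on chromosome 17 from 37010746 to 37023398 (ENSMUSG00000076439). Mog was at 1.47, 0.342 and 0.107 FPKM in wild-type animals 2, 4 and 5, at 0.0332 FPKM in Plekhg5-deficient nerve 2, and was listed at 0 in Plekhg5-deficient nerves 3 and 5. The groups did not overlap, and the order among the wild-type nerves was that of Mobp. The lower bound of the interval was above 0 in wild-type nerves 2 and 4 alone. Ermn encodes ermin, a cytoskeletal protein of oligodendrocytes, and lies on chromosome 2 from 58045113 to 58052864 (ENSMUSG00000026830). Ermn was at 1.13, 0.192 and 0.150 FPKM in the wild-type group, was listed at 0 in Plekhg5-deficient nerve 2, and was at 0.0608 and 0.0400 FPKM in Plekhg5-deficient animals 3 and 5. The groups again did not overlap and wild-type nerve 2 was the highest library, 5.88-fold above wild-type nerve 4. The locus overlaps Galnt5, and the strand setting of the quantification is not known here.

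Opalin encodes a membrane glycoprotein of oligodendrocytes and lies on chromosome 19 from 41062474 to 41077113 (ENSMUSG00000050121). Opalin was at 0.553, 0.221 and 0.0992 FPKM in the wild-type group and at 0.0942 FPKM in Plekhg5-deficient nerve 3, and was listed at 0 in Plekhg5-deficient nerves 2 and 5. The groups were separated by a ratio of 1.05 between the nearest libraries, and with FPKM as deposited they overlapped (0.0983 FPKM in wild-type nerve 5 and 0.0993 FPKM in Plekhg5-deficient nerve 3). Olig2 encodes the transcription factor that specifies the oligodendrocyte lineage and lies on chromosome 16 from 91225550 to 91228677 (ENSMUSG00000039830). Olig2 was at 0.305, 0.0477 and 0.0374 FPKM in the wild-type group and was listed at 0 in all 3 Plekhg5-deficient nerves. The interval of Olig2 was above 0 in wild-type nerve 2 alone, so that its level could not be told from 0 in wild-type nerves 4 and 5. Hapln2, which encodes a link protein of the matrix around central nodes of Ranvier, lies on chromosome 3 from 88021750 to 88027583 (ENSMUSG00000004894). Hapln2 was at 0.468, 0.224 and 0.312 FPKM in wild-type animals, against 0.169, 0.598 and 0.163 FPKM among Plekhg5-deficient animals, and its highest library was Plekhg5-deficient nerve 3. The log2 fold change of Hapln2 was -0.039 (standard error 0.16, 95% interval -0.43 to 0.35).

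**Figure D1:**
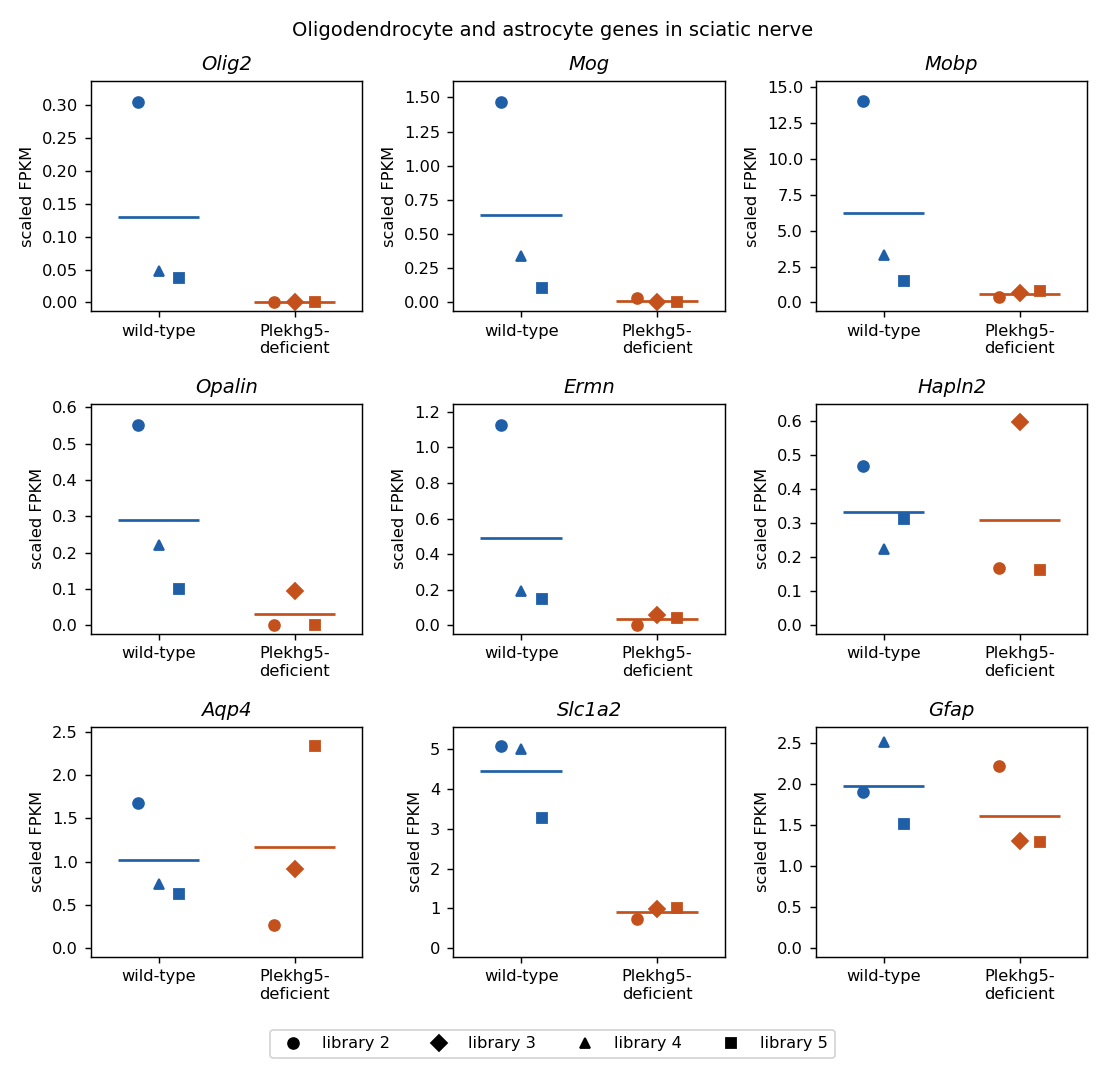
Scaled FPKM of the 9 genes, on a linear axis of its own for each gene, in each of 3 wild-type (blue) and 3 Plekhg5-deficient (orange) sciatic nerves. Each symbol is 1 library, its shape the number of the animal, and each bar the mean of 3. The wild-type values of Olig2, Mog, Mobp, Opalin, Ermn and Slc1a2 lie above all Plekhg5-deficient values. All of these are highest in wild-type nerve 2, but Slc1a2 is nearly equal in wild-type nerve 4 (5.07 and 5.01 FPKM).

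Slc1a2 encodes the main astrocytic glutamate transporter and lies on chromosome 2 from 102658659 to 102790784 (ENSMUSG00000005089). Slc1a2 was at 5.07, 5.01 and 3.27 FPKM in wild-type animals 2, 4 and 5, against 0.744, 0.986 and 1.02 FPKM among Plekhg5-deficient animals 2, 3 and 5. The groups did not overlap, and the lowest wild-type nerve was 3.22-fold above the highest Plekhg5-deficient nerve. Unlike the oligodendrocyte members, Slc1a2 had about the same level in wild-type nerves 2 and 4, with a ratio of 1.01. The mean was 4.86-fold higher in wild-type nerves (4.45 ± 1.02 FPKM, SD, n = 3) than in Plekhg5-deficient nerves (0.915 ± 0.149, SD, n = 3), and 4.52-fold higher without wild-type nerve 2. The log2 fold change was -1.49 (standard error 0.21, 95% interval -2.0 to -0.99). By unadjusted p it ranked 23rd of the 21285 genes tested, and the adjusted p of 0.234 from limma did not pass. With libraries weighted by their spread (array weights) the difference was -1.67 and the limma adjusted p was 0.0314. The intervals of single libraries were wide and overlapped between genotypes, with 1.29 to 5.26 FPKM in wild-type nerve 5 and 0 to 2.58 FPKM in Plekhg5-deficient nerve 5.

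Gfap and Aqp4, the other astrocyte members, overlapped between the genotypes. Gfap lies on chromosome 11 from 102887336 to 102900912 (ENSMUSG00000020932) and was at 1.91, 2.51 and 1.51 FPKM in wild-type animals, against 2.22, 1.31 and 1.29 FPKM among Plekhg5-deficient animals. Its range over the 6 libraries was the smallest of the 9 genes relative to its highest value, with the lowest library at 51.5% of the highest. Mean levels were 1.98 ± 0.501 FPKM in wild-type and 1.61 ± 0.532 FPKM in Plekhg5-deficient nerves (SD, n = 3), and the log2 fold change of -0.20 had a 95% interval of -0.74 to 0.35. Aqp4 lies on chromosome 18 from 15389394 to 15403684 (ENSMUSG00000024411) and was at 1.68, 0.743 and 0.628 FPKM in wild-type animals, against 0.266, 0.920 and 2.33 FPKM among Plekhg5-deficient animals. The highest and the lowest library were both Plekhg5-deficient, and the log2 fold change was 0.030 (standard error 0.38, 95% interval -0.89 to 0.95). Fast skeletal muscle also expresses Aqp4, and 14 skeletal muscle genes summed to 19157, 3024 and 13949 FPKM in the wild-type group and to 2800.5, 340.2 and 51350 FPKM in Plekhg5-deficient animals 2, 3 and 5. The library with the most muscle RNA was thus also the highest in Aqp4, whereas that with the least was above 3 others. The part of muscle in the level of Aqp4 was not tested.

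Of the 9 members, 0 passed limma's test over all genes at the adjusted threshold of 0.05, and 2, Mobp and Slc1a2, had an unadjusted p under 0.05. Among all 21285 genes tested, 0.0094% were called lower and 0.0282% higher at the adjusted threshold, and 2.69% were lower, and 2.41% were higher, at an unadjusted p under 0.05. These shares, 573 genes lower and 514 higher, rest on the scaling between libraries, since FPKM as deposited gave 753 lower and 239 higher and moved the median log2 fold change of all genes from 0.0065 to -0.094. The values of 6 members, Olig2, Mog, Mobp, Opalin, Ermn and Slc1a2, were lower in Plekhg5-deficient nerves with no overlap, and those of 0 members were higher with no overlap. The background was 5.88% of genes lower and 5.69% higher with no overlap. Olig2, Mog, Opalin and Ermn passed the minimum of 0.1 FPKM through the wild-type mean alone, so that a gene of this kind could enter the comparison in 1 direction only, and the count is given as a description. The median log2 fold change of the 9 members was -0.31, against 0.0065 for all genes tested. With 3 animals a group, the exact permutation test, two-sided, could reach no p below 0.1 for any one gene.

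**Figure D2:**
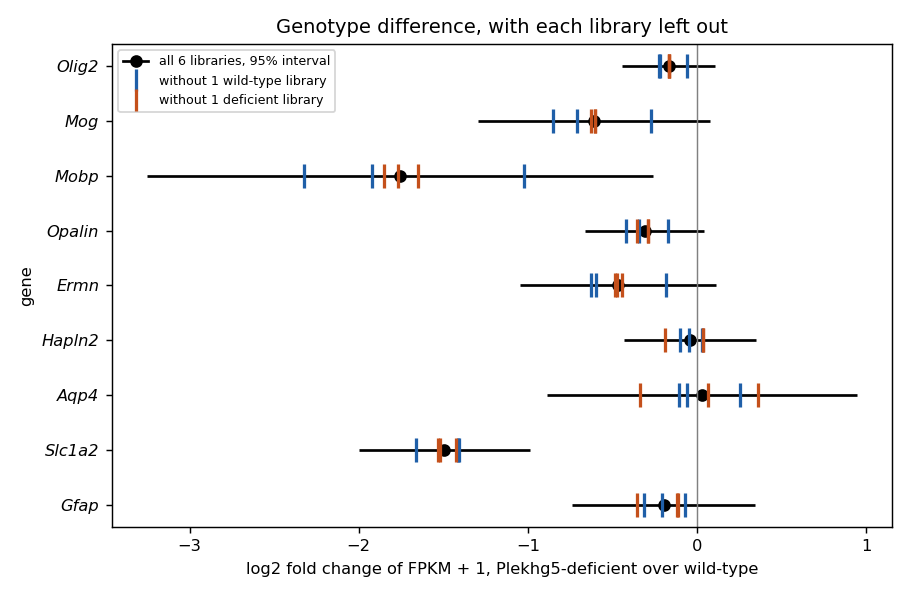
Log2 fold change of FPKM + 1, Plekhg5-deficient over wild-type, for each of the 9 genes. Black circles and lines give the estimate over all 6 libraries with its 95% interval from limma, blue ticks the estimate without each wild-type library and orange ticks that without each Plekhg5-deficient library. Slc1a2 stays between -1.66 and -1.41, Mobp ranges from -2.32 to -1.02, and Hapln2 and Aqp4 fall on both sides of 0.

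The wild-type nerves differed among themselves in the oligodendrocyte genes. The 6 genes summed to 17.9, 4.32 and 2.17 FPKM in wild-type animals 2, 4 and 5 and to 0.581, 1.39 and 1.03 FPKM in Plekhg5-deficient animals 2, 3 and 5. The ratio of wild-type nerve 2 to wild-type nerve 4 was 6.39 for Olig2, 5.88 for Ermn, 4.30 for Mog, 4.24 for Mobp, 2.498 for Opalin and 2.09 for Hapln2, against 2.27 for Aqp4, 1.01 for Slc1a2 and 0.760 for Gfap. For the 6 oligodendrocyte genes and Aqp4 this ratio was 2.09 or more, Slc1a2 was nearly equal in these nerves, and Gfap was lower in wild-type nerve 2. Without wild-type nerve 2, the log2 fold changes of Mog, Ermn, Opalin and Olig2 were -0.27, -0.18, -0.17 and -0.060, in place of -0.61, -0.47, -0.31 and -0.17. The limma adjusted p of each of these 4 genes was 0.974 over all libraries.

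**Figure D3:**
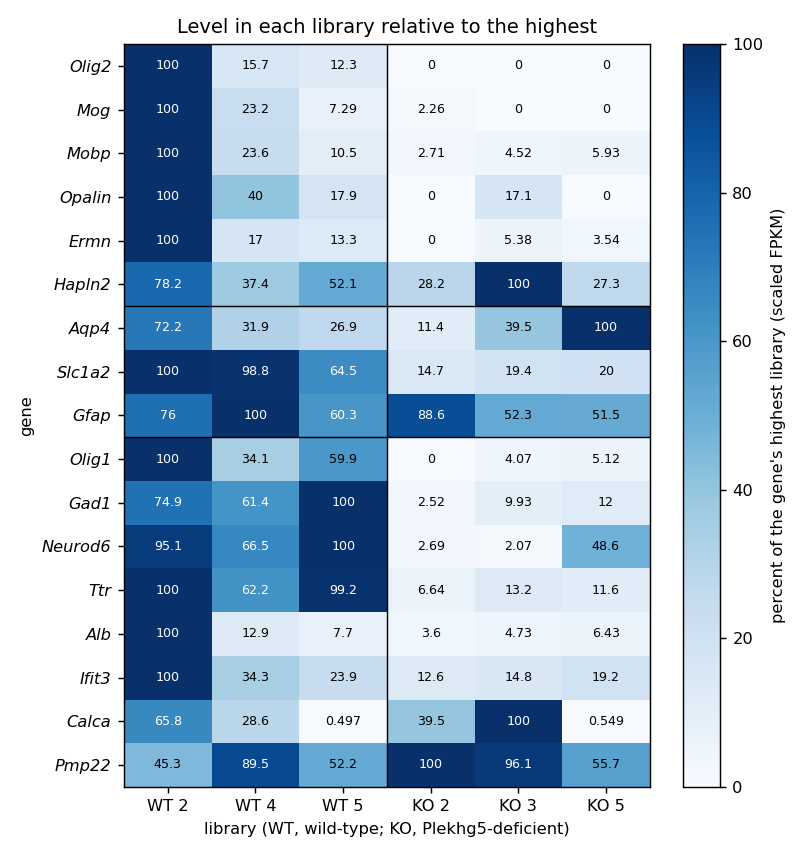
Level of each gene in each library as a percentage of the gene's highest library, for the 6 oligodendrocyte genes, the 3 astrocyte genes and 8 genes for comparison. Olig2, Mog, Mobp, Opalin and Ermn reach at most 40.0% of wild-type nerve 2 in any other library, Slc1a2 is at 98.8% in wild-type nerve 4, and Calca, a sensory neuron gene, is below 1% in both libraries numbered 5.

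Other genes of the same cell types were compared by lists. Of 27 further oligodendrocyte genes, 24 were tested, of which 17 had a log2 fold change below 0 and 4 were lower with no overlap. Olig1, the partner of Olig2 in the oligodendrocyte lineage, was at 1.96, 0.669 and 1.18 FPKM in the wild-type group, was listed at 0 in Plekhg5-deficient nerve 2 and was at 0.0798 and 0.10 FPKM in Plekhg5-deficient animals 3 and 5 (log2 fold change -1.06 ± 0.22 SE, limma adjusted p = 0.512). Cldn11, which encodes a tight junction protein of central myelin, was at 7.46, 6.93 and 5.73 FPKM in wild-type animals, against 2.75, 2.91 and 2.13 FPKM among Plekhg5-deficient animals. Sox8 and Myrf, transcription factors of oligodendrocytes, also did not overlap, with nearest libraries at ratios of 1.09 and 1.15. Of these 4 genes, Olig1 passed the minimum of 0.1 FPKM through the wild-type mean alone, so it could be counted as lower only. Mbp and Mal, among the highest genes of the list, are made by Schwann cells as well. Mbp was between 2346 and 4661 FPKM in all libraries, and Mal between 125 and 253 FPKM. The median log2 fold change of the list was -0.068.

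Of 20 further astrocyte genes, 16 had a log2 fold change below 0, 2 were lower with no overlap and 0 were higher with no overlap. The highest were S100b, Glul and Atp1b2, which Schwann cells or other nerve cells express too, at 181 to 551, 144 to 293 and 68.0 to 101 FPKM. Ntsr2, an astrocytic neurotensin receptor, was at 8.01, 3.45 and 2.24 FPKM in wild-type animals, against 1.53, 1.79 and 2.16 FPKM among Plekhg5-deficient animals, with a ratio of 1.04 between the nearest libraries. Slc7a10, an amino acid transporter, was separated by a ratio of 1.01. The median of the list was -0.19, and 0 genes of either list passed limma's adjusted threshold. At an unadjusted p under 0.05, 2 of the 24 oligodendrocyte and 1 of the 20 astrocyte genes were lower.

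Markers of other cells of the brain were examined next. Of 15 tested genes of central neurons, 6 were lower in Plekhg5-deficient nerves with no overlap and 0 were higher with no overlap. Gad1, which encodes the enzyme that makes the inhibitory transmitter GABA, was at 2.24, 1.83 and 2.99 FPKM in wild-type animals, against 0.0753, 0.297 and 0.358 FPKM among Plekhg5-deficient animals (log2 fold change -1.42 ± 0.19 SE, limma adjusted p = 0.212). Gad2, Slc32a1, Neurod6, Slc12a5 and Slc5a7 were the others. Gad2, Slc32a1 and Slc5a7 passed the minimum of 0.1 FPKM through the wild-type mean alone, so they could be counted as lower only. Neurod6, a transcription factor of cortical neurons, was at 0.925, 0.647 and 0.973 FPKM in wild-type animals, against 0.0262, 0.0201 and 0.472 FPKM among Plekhg5-deficient animals. Snap25, the highest gene of the list and one that sensory neurons express as well, ranged from 4.39 FPKM in Plekhg5-deficient nerve 5 to 219 FPKM in Plekhg5-deficient nerve 3. Camk2a and Nrgn overlapped between genotypes, and Chat was listed at 0 in every library. The summed level of the list was 121 to 261 FPKM in the wild-type group and 67.1 to 327 FPKM in the Plekhg5-deficient group. The part of central nervous tissue in the levels of the members was not tested.

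Of 8 genes of choroid plexus and ependyma, 7 were tested and all 7 had a log2 fold change below 0. The list summed to between 14.0 and 19.0 FPKM in the wild-type group and to 3.34 to 5.70 FPKM among Plekhg5-deficient animals. Ttr made up most of each wild-type sum, and the separation of the sums was set by this gene. Ttr, which encodes transthyretin and is made by choroid plexus and liver, was at 13.9, 8.67 and 13.8 FPKM in wild-type animals, against 0.926, 1.85 and 1.61 FPKM among Plekhg5-deficient animals (log2 fold change -2.41 ± 0.26 SE, limma adjusted p = 0.118). Kl was also lower with no overlap, Folr1 and Dynlrb2 overlapped, and Otx2, Foxj1, Ccdc153 and Tmem212 were listed at 0 in at least 1 library. Among 8 microglial genes, which nerve macrophages share in part, Tmem119, Olfml3 and Sall1 were lower with no overlap. Kl and Sall1 passed the minimum of 0.1 FPKM through the wild-type mean alone, so they could be counted as lower only.

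The remaining lists concern peripheral cells. Of 15 Schwann cell myelin genes, 0 were lower with no overlap, Ncmap and Pou3f1 were higher with no overlap, and the sum of the list lay between 11085 and 20150 FPKM in wild-type and from 11736 to 19680 FPKM among Plekhg5-deficient animals. Of 11 genes of non-myelinating and repair Schwann cells, Olig1 was the 1 gene without overlap. Scn7a, L1cam and Gap43 overlapped, as did Gfap among the members, and Gap43 and L1cam were lowest in the libraries numbered 5. All 10 sensory neuron genes were lowest in the 2 libraries numbered 5, and Calca, which encodes the neuropeptide CGRP, was at 474, 206 and 3.58 FPKM in wild-type animals, against 285, 720 and 3.95 FPKM among Plekhg5-deficient animals. Without both libraries numbered 5 the log2 fold changes were -2.42 for Mobp and -1.70 for Slc1a2, and the part of sensory neuron RNA in the levels of the members was not tested. Of 10 T-cell and B-cell genes, Lck was lower with no overlap. Of 7 erythroid genes, 0 were without overlap, as were 0 of 14 skeletal muscle genes.

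**Figure D4:**
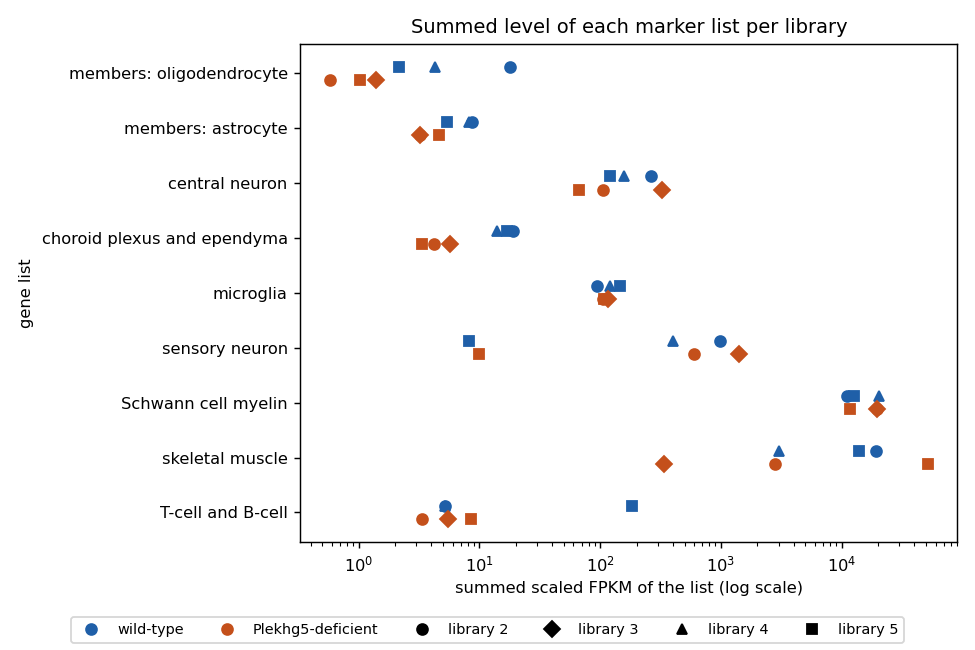
Summed scaled FPKM of 9 gene lists in each library, on a logarithmic axis, for 3 wild-type (blue) and 3 Plekhg5-deficient (orange) nerves. Each symbol is 1 library and its shape the number of the animal. The sums of the oligodendrocyte members, the astrocyte members and the genes of choroid plexus and ependyma do not overlap between genotypes. Mobp, Slc1a2 and Ttr make up most of these sums in wild-type nerves, and Hapln2, Gfap and Aqp4 overlap as single genes. The sensory neuron list is near 10 FPKM in both libraries numbered 5.

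Mobp made up most of the summed oligodendrocyte genes, and its own profile lay 0.127 from that of the sum. The genes nearest to the sum were not among the glial lists. Among 14960 other genes that averaged 1 FPKM or more, the nearest by the root mean square difference of centred log2(FPKM + 1) over the 6 libraries was Ifit3, an interferon-inducible gene, with a difference of 0.303. Ifit3 was at 61.4, 21.0 and 14.7 FPKM in wild-type animals, against 7.73, 9.12 and 11.8 FPKM among Plekhg5-deficient animals. Of the 10 nearest genes, Alb, Serpina1c, Mup3, Apoa2 and Serpina1a encode proteins that the liver secretes. Ifit3, Igtp, I830012O16Rik, Gm12250 and Cxcl9 made up the remainder, of which at least Ifit3, Igtp and Cxcl9 are inducible by interferons. Alb, the albumin gene, was at 37.6, 4.86 and 2.90 FPKM in wild-type animals, against 1.35, 1.78 and 2.42 FPKM among Plekhg5-deficient animals. Reads of Serpina1a, Serpina1c and Mup3, and of Ifit3 and its copy I830012O16Rik, may be split among near-identical copies, so their levels are uncertain. A liver list of 16 genes, written after these values had been seen, had 14 genes below 0 and 5 lower with no overlap. Of these 5, Alb, Serpina1a, Serpina1c and Mup3 were taken from the 10 nearest genes above, and Ttr had already been seen to be lower. Their count is therefore no separate evidence. Fga, Fgb and Fgg, which encode the chains of fibrinogen, were at 1.08, 1.02 and 1.82 FPKM in wild-type animal 2 and no higher than 0.253 FPKM in the others. The sum of the liver list was set by Cyp2e1, which was between 180 and 690 FPKM in all libraries.

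The genes nearest to Slc1a2, a comparison added after the values had been seen, were different ones. The nearest was D2hgdh, which encodes a mitochondrial dehydrogenase, at 5.64, 5.65 and 4.91 FPKM in wild-type animals, against 1.33, 0.911 and 0.968 FPKM among Plekhg5-deficient animals, with a root mean square difference of 0.201. Mgarp and Col26a1 ranked 3 and 4, and Cldn11 ranked 5 with a difference of 0.254. Of the 10 nearest genes, 0 were among the 10 nearest to the summed oligodendrocyte genes.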

How the data were processed

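The members and lists were chosen with earlier results of these data known. The deposited tables hold FPKM and their 95% intervals, estimated by the authors for each library with Cufflinks 2.2.1 after trimming with Trim Galore 0.4.0 and mapping to GRCm38 with STAR. They hold no counts, and of depth, annotation release and strand setting the sources say nothing. Repeated identifiers were summed (22 rows). Each library was divided by its median-of-ratios factor (0.745 to 1.12). A gene was kept if its deposited mean reached 0.1 FPKM in a genotype. Values of log2(FPKM + 1) were fitted on genotype alone with limma (version 3.58.1, under R 4.3.3) using its variance trend, and p-values were adjusted after Benjamini and Hochberg. The procedure was tested on simulated data. Fold changes on this scale understate changes of low genes. A listed 0 may be a failed estimate in some genes. All 9 members were kept when the genes were limited to those with a Cufflinks status of OK, and their log2 fold changes were unchanged.

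Named genes were Plekhg5, the members, the 3 highest genes of each of 11 lists (oligodendrocyte, astrocyte, central neuron, microglia, choroid plexus and ependyma, sensory neuron, Schwann cell myelin, non-myelinating and repair Schwann cell, skeletal muscle, T-cell and B-cell, erythroid) and the 10 genes nearest to the summed oligodendrocyte members. Not all of these are printed, and some genes of the lists are not reported here. Other names, the liver list and the genes nearest to Slc1a2 were chosen after their values were seen. Starts in the tables, which count from 0, were raised by 1. The alternatives tried were no scaling, scaling to the upper quartile, pseudocounts of 0.1 and 0.5, dropping the minimum or raising it to 1 FPKM, array weights, a robust variance, leaving out the trend, status OK alone, a replicate block, each library left out and, added later, both libraries numbered 5 left out. Promoters were searched by exact match. Figures were drawn with matplotlib 3.10.9.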

Additional observations from a re-analysis of the deposited data

How the results depend on the processing

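Over 18 alternatives, Olig2, Mog, Mobp, Opalin, Ermn and Slc1a2 kept a log2 fold change below 0 wherever they were tested, and 0 members passed at an adjusted p under 0.05 from limma except Slc1a2 with array weights (-1.67, adjusted p = 0.0314, range over its alternatives 0.0314 to 0.892). Aqp4 was below 0 with a pseudocount of 0.1 (-0.089), FPKM as deposited (-0.093), array weights (-0.47), the replicate block (-0.025) and without both libraries numbered 5 (-0.47), and lay between -0.34 and 0.36 with 1 library left out. Hapln2 lay between -0.19 and 0.039 with 1 library left out and was 0.028 without both libraries numbered 5, and Gfap was 0.0080 under the replicate block. The median of the members was -1.48 with a pseudocount of 0.1, -0.84 with a minimum of 1 FPKM, which left 4 members, and -0.42 to -0.18 with 1 library left out. With FPKM as deposited, 5 members were lower with no overlap.

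Over all genes, 2 lower and 6 higher calls became 1 lower with a pseudocount of 0.1, a minimum of 1 FPKM or a robust variance, 8 lower and 14 higher with array weights, and 0 in either direction with no minimum, the replicate block or without both libraries numbered 5 (at an unadjusted p under 0.05 from limma, 739, 616 and 694 lower and 769, 336 and 706 higher). With 1 library left out there were 0 lower (350 to 730 at an unadjusted p under 0.05) and 0 to 4 higher calls. The shared numbers 2 and 5 are not shown to pair animals: same-numbered libraries deviated from their group means with correlations of 0.073 and 0.58 across genes. Cufflinks intervals reaching 0 limit Olig2, Mog, Opalin and Hapln2 most.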
